A study of Homo sapiens with 6 samples.

Results

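The Kruppel-like factors (KLFs) are zinc finger transcription factors, and 10 genes of the family, KLF3, KLF4, KLF5, KLF6, KLF9, KLF10, KLF11, KLF13, KLF15 and KLF16, were followed among the 20422 genes counted in HepG2 cells with and without overexpression of the microprotein APPLE. The 10 genes were selected on the family name with read counts of the same control and APPLE libraries already in view, the values that the comparison below uses. Their differences between the groups are therefore given as a description with no p-value, and a count of them past a threshold is printed beside the share over all genes and supports nothing.

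KLFs bind GC-rich and CACCC-containing DNA through 3 zinc fingers at the C-terminus, and the SP factors, their closest relatives, bind much the same elements. The N-terminal parts differ and set the partners. KLF3 recruits the corepressor CtBP, KLF4, KLF5 and KLF6 work largely with acetyltransferases, and KLF9, KLF10, KLF11, KLF13 and KLF16 bind SIN3A. In the liver, KLF6 is known for its induction after injury and KLF15 for its control of gluconeogenesis and amino acid breakdown.

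HepG2 is an established human liver cancer line. The control group (NC) held 3 libraries and the ORF-Flag group held 3, the latter from cells that overexpressed the open reading frame of the lncRNA ASH1L-AS1 with a Flag tag. The sample labels describe plasmids transfected into HepG2 (an empty vector for NC), whereas the study's methods describe stable lines made by lentiviral infection and puromycin selection. The labels do not say whether the 3 libraries of a group came from separate cultures, and every p-value below then measures only the spread between these libraries. The NC libraries held 20081203, 24907524 and 30088457 counted reads and the ORF-Flag libraries 26866148, 17494668 and 27015836. Values of single libraries are listed throughout in the order of replicates 1, 2 and 3.

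The libraries carried a hepatocyte signature. All 10 hepatocyte markers were counted in each library, with a summed level between 25562 and 26632 CPM (the count relative to a library total scaled by TMM factors) and with APOB, the apolipoprotein of VLDL and LDL, as the most abundant in all but ORF-Flag replicate 1, where ALB (albumin) was. FGB, the fibrinogen beta chain, was the single marker of these 10 that passed the edgeR quasi-likelihood test, with a log2 fold change of 0.14 and an adjusted p of 0.0232, and it lost that call without any one library other than NC replicate 3 (0.11 to 0.16 without these libraries, adjusted p of FGB between 0.000465 and 0.117 over its alternatives). Over all 12386 genes tested 4.45% were past an adjusted p of 0.05, 2.47% higher and 1.98% lower. Without NC replicate 3, 2 of the 10 passed, where the count over all genes went from 551 to 1058. The 9 markers of blood, endothelium, fibroblasts and muscle summed to between 106 and 118 CPM in each library, most of it from ACTA2 (smooth muscle actin), and 0 of the 3 that were tested passed, with 1 at an unadjusted p below 0.05 and 0 in DESeq2, limma-trend and limma-voom. Of all 12386 genes tested, 2293 were at an unadjusted p below 0.05. PTPRC, CD3E and DCN, which define leukocytes, T cells and fibroblasts, were at 0 counts in all 6 libraries.

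Compared per length, as FPKM (CPM per kilobase of exon), KLF6 was the most abundant listed gene in NC, at a mean of 9.29 ± 0.293 (SD, n = 3). KLF10 followed at 8.46 ± 0.629 and KLF3 at 6.27 ± 0.222 FPKM. KLF5 stood at 3.34 ± 0.191 FPKM. KLF11 and KLF16 lay near each other, at 2.39 ± 0.0306 and 2.16 ± 0.435 FPKM, and a low group followed. In that low group KLF9 had a mean of 0.473 FPKM, KLF13 of 0.373, KLF4 of 0.269 and KLF15 of 0.0804. Over all 6 libraries the ranges of KLF6 and KLF10 overlapped, as did those of KLF11 and KLF16, of KLF9 and KLF13, and of KLF13 and KLF4, and the order within the first 3 of these pairs was not resolved. KLF13 lay above KLF4 in each of the 6 libraries. All these levels and orders also depend on the length used, and other lengths were not tried. The exon length was 6139 bases for KLF6 and 4003 for KLF10, where their longest transcripts have 4656 and 3659. The steps from KLF10 to KLF3, from KLF3 to KLF5, from KLF5 to KLF11 and from KLF16 to KLF9 were larger than the spread between libraries. Summed over all 18 KLF genes, the level was between 32.8 and 34.0 FPKM in the NC libraries and between 35.1 and 37.9 FPKM in the ORF-Flag libraries. KLF3, KLF6 and KLF10 together made up between 70.7% and 72.9% of that sum in each library.

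**Figure D1:**
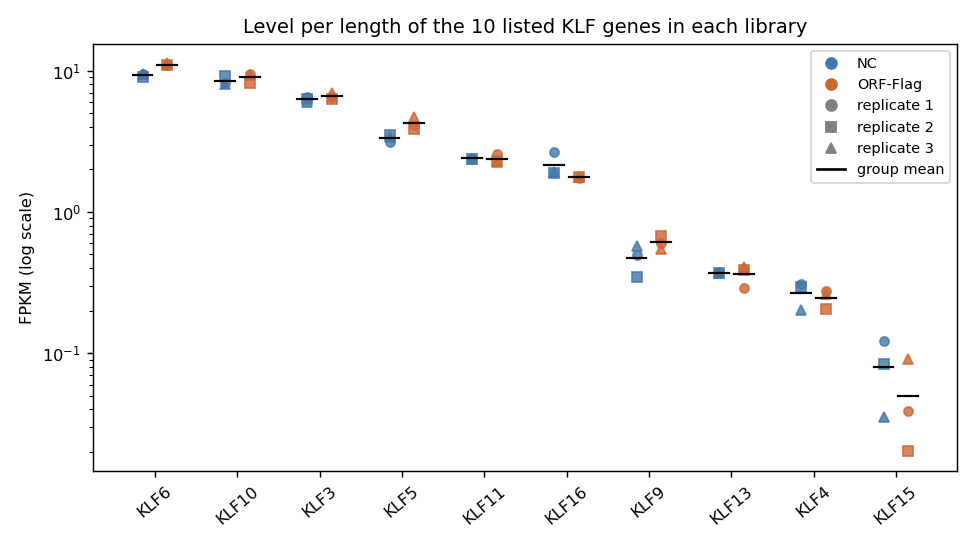
Level per length of the 10 listed KLF genes in each library, as FPKM on a log scale, for NC (blue) and ORF-Flag (orange), with a symbol for each replicate and a line at each group mean. KLF6, KLF10 and KLF3 lead, and KLF15 is lowest, with a mean of 0.0804 FPKM in NC.

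Of the 10 listed genes, 9 passed the filter on low counts and KLF15 did not. In ORF-Flag against NC, 2 of the 9 were past an adjusted p of 0.05, where 4.45% of all 12386 genes tested were past it, 2.47% higher and 1.98% lower. The 3 libraries of one group lay wholly above the other for 3 of the 9, KLF5, KLF6 and KLF16, where 22.4% of all genes tested had such groups. Since the same contrast was in view when the genes were listed, nothing is read from these counts. The median log2 fold change of the 9 was 0.07, with 5 of the 9 above 0, and over all genes tested the median was -0.001. The signs of the 9 fold changes were the same with DESeq2's size factors and without TMM factors, whereas those of KLF4, KLF11 and KLF13 turned with a library left out.

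KLF3 is a repressor that recruits CtBP and is best known from blood and fat cells. Its level was 40.8, 39.6 and 38.0 CPM in NC and 40.8, 39.7 and 43.6 CPM in ORF-Flag. The groups overlapped, with ORF-Flag replicate 3 highest and NC replicate 3 lowest. The log2 fold change of KLF3 was 0.07 with a standard error (SE) of 0.054 and a 95% interval of -0.04 to 0.18, and leaving out the third library of NC or of ORF-Flag gave 0.04 and 0.03.

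Among the activators, KLF6, a broadly expressed factor often studied as a growth suppressor in liver cancer, was at 57.9, 55.0 and 58.2 CPM in NC and at 67.0, 67.1 and 69.1 CPM in ORF-Flag. Every ORF-Flag library lay above every NC library, and the gap between the groups exceeded the spread within either. For KLF6 the log2 fold change was 0.25 (SE 0.044, 95% interval 0.16 to 0.34), which is 18.8% more mRNA, and it stayed between 0.22 and 0.27 with any one library left out. KLF6 rested on between 1168 and 1866 counts per library, the most of the 10 genes.

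KLF5, which drives proliferation in epithelia, was at 12.2, 13.7 and 13.1 CPM in NC and at 16.1, 15.1 and 18.3 CPM in ORF-Flag. The groups did not overlap, and ORF-Flag replicate 3 was the highest. KLF5 had a log2 fold change of 0.34 (SE 0.082, 95% interval 0.17 to 0.51), or 27.0% more mRNA. With any one library left out it lay between 0.26 and 0.39. The intervals of KLF5 and KLF6 overlapped, and the difference between the 2 fold changes was not tested.

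KLF4, the pluripotency factor that also acts in epithelial differentiation, was near 1 CPM, at 1.14, 1.08 and 0.735 in NC and at 1.01, 0.747 and 0.963 in ORF-Flag. The groups overlapped, and the lowest library was NC replicate 3. With 13 to 27 counts per library, the log2 fold change of KLF4 of -0.06 had an SE of 0.28 and a 95% interval of -0.65 to 0.52, so a change of the size measured for KLF5 or KLF6 was not detectable at this depth. Its sign turned without NC replicate 1 (0.04), NC replicate 2 (0.02) or ORF-Flag replicate 2 (0.03), and without NC replicate 3, ORF-Flag replicate 1 or ORF-Flag replicate 3 it was -0.26, -0.14 and -0.10.

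The SIN3A-binding group held KLF10 and KLF11, early genes of TGF-beta signaling, KLF9, a target of glucocorticoid and thyroid hormone receptors, KLF13, an activator of CCL5 in T cells, and KLF16. KLF10 was at 32.7, 36.8 and 32.1 CPM in NC and at 37.8, 33.0 and 37.2 CPM in ORF-Flag. KLF11 was at 11.1, 10.9 and 10.96 CPM in NC and at 11.8, 10.5 and 10.4 CPM in ORF-Flag. Both overlapped between the groups, and KLF11 hardly varied within NC. KLF10 had a log2 fold change of 0.10 (SE 0.063) and KLF11 of -0.01 (SE 0.088). That of KLF10 was 0.06 without NC replicate 3 or ORF-Flag replicate 1, 0.158 without NC replicate 2 and 0.148 without ORF-Flag replicate 2. For KLF11 the sign turned without NC replicate 1 (0.0022), ORF-Flag replicate 2 (0.017) or ORF-Flag replicate 3 (0.03), and without ORF-Flag replicate 1 and NC replicate 2 it was -0.07 and -0.016.

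KLF9 was at 2.57, 1.80 and 2.97 CPM in NC and at 3.13, 3.50 and 2.85 CPM in ORF-Flag. Its low value came from NC replicate 2, and the groups overlapped through NC replicate 3 and ORF-Flag replicate 3. The log2 fold change of KLF9 was 0.35, as large as that of KLF5, but with 45 to 89 counts per library its SE was 0.19 and its 95% interval ran from -0.04 to 0.73. Without NC replicate 2 the log2 fold change of KLF9 was 0.16, the lowest with 1 library left out, and without NC replicate 3 it was 0.54, the highest.

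KLF13 was at 3.56, 3.48 and 3.47 CPM in NC and at 2.72, 3.68 and 3.85 CPM in ORF-Flag. ORF-Flag replicate 1 was the lowest library and ORF-Flag replicate 3 the highest, so the NC libraries lay inside the ORF-Flag range. For KLF13 the log2 fold change was -0.05 (SE 0.16). It was 0.11 without ORF-Flag replicate 1, so the sign turned, and -0.16 and -0.09 without ORF-Flag replicates 3 and 2.

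KLF16 was the listed gene with the ORF-Flag libraries below NC, at 7.86, 5.57 and 5.71 CPM in NC and at 5.14, 5.23 and 5.26 CPM in ORF-Flag. The groups did not overlap, but NC replicate 1 stood far above the other two NC libraries. KLF16 had a log2 fold change of -0.28 (SE 0.14, 95% interval -0.56 to 0.0051), and -0.12 without NC replicate 1. In GENCODE v29, 483 exonic bases of KLF16 (16.4%) lie opposite an antisense transcript, as do 416 of KLF11 (9.07%) and 266 of KLF3 (4.22%), and since no use of strand is stated, reads of the 2 strands cannot be told apart there.

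KLF15, the hepatic regulator of gluconeogenesis, was close to the limit of counting, with 7, 6 and 3 counts in NC and 3, 1 and 7 counts in ORF-Flag. The groups overlapped. The sums were 16 counts in NC (exact Poisson 95% interval 9.15 to 26.0) and 11 counts in ORF-Flag (5.49 to 19.7), intervals that cover counting error only, and no difference was detectable at this depth. In these libraries 3 counts correspond to between 0.1002 and 0.1723 CPM.

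**Figure D2:**
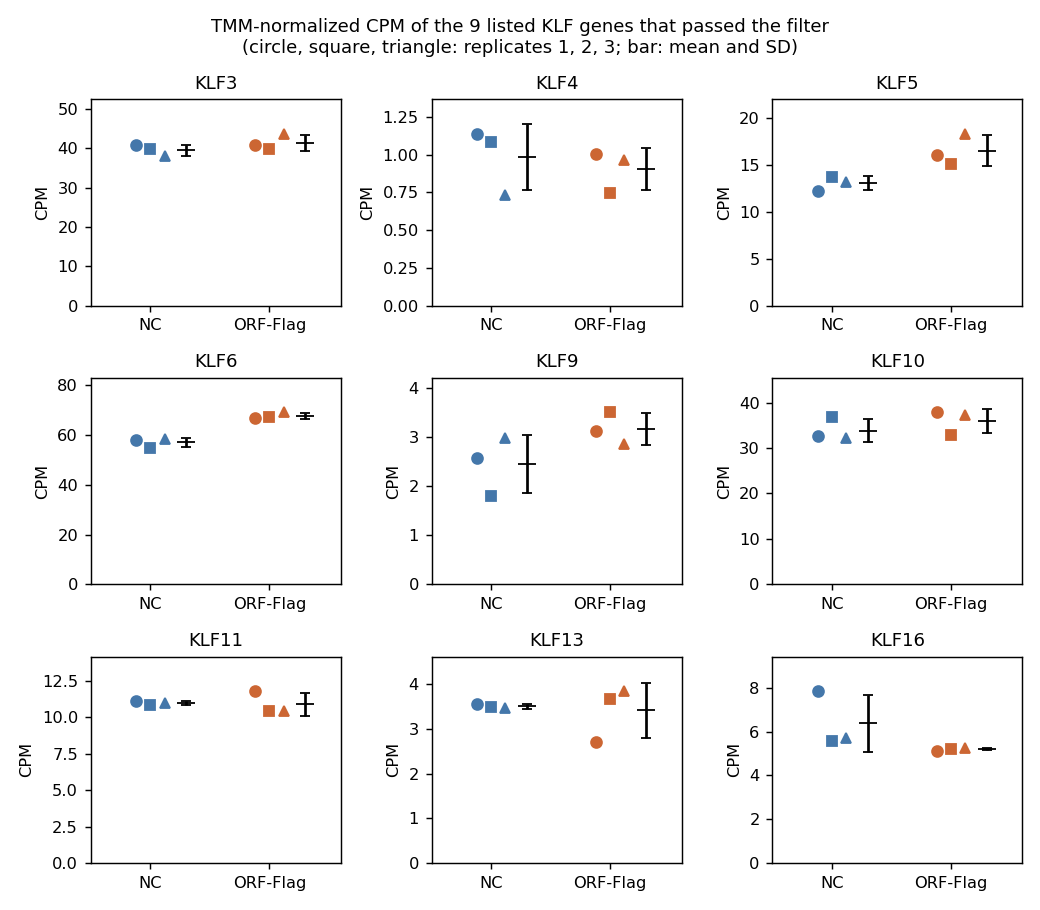
TMM-normalized CPM of the 9 listed KLF genes that passed the filter, with each library as a symbol (circle, square and triangle for replicates 1, 2 and 3) and the mean and SD of each group beside them, on axes that start at 0. KLF5 and KLF6 lie higher in all 3 ORF-Flag libraries, KLF16 lies lower with 1 high NC library, and the other genes overlap.

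The rest of the family was measured in the same fit. Of the 8 KLF genes outside the list, 2 were tested. KLF7, studied in neurons, had a log2 fold change of -0.17 (SE 0.21, edgeR adjusted p = 0.74), and KLF12, a repressor that recruits CtBP as KLF3 does, had 0.24 (SE 0.22, edgeR adjusted p = 0.629). The value of KLF7 was -0.06 without NC replicate 1 and -0.28 without NC replicate 3, and that of KLF12 was 0.04 without ORF-Flag replicate 3 and 0.36 without ORF-Flag replicate 2. KLF2, the endothelial flow-response factor, had 1 to 5 counts per library, and KLF1, KLF8, KLF14, KLF17 and KLF18 had at most 1. KLF14, KLF17 and KLF18 were at 0 in each library.

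Of the 9 SP genes, 5 were tested. SP3 averaged 128 ± 6.80 CPM (SD, n = 3) for NC and 130 ± 4.12 CPM for ORF-Flag, with a log2 fold change of 0.02 (SE 0.041, edgeR adjusted p = 0.874), and SP1, the founding member, had 0.09 (SE 0.058, edgeR adjusted p = 0.429). SP2 and SP4 had log2 fold changes of 0.15 and 0.05, with edgeR adjusted p-values of 0.327 and 0.911. The sign of SP3 turned without NC replicate 1 (-0.02) or ORF-Flag replicate 2 (-0.0027), and that of SP4 without ORF-Flag replicate 1 (-0.15). SP5, a target of Wnt signaling, was at 58.9, 49.97 and 44.4 CPM in NC and at 46.8, 41.2 and 44.97 CPM in ORF-Flag. The groups overlapped through NC replicate 3, and the log2 fold change of SP5 was -0.19 (SE 0.071, edgeR adjusted p = 0.138). Without NC replicate 1 the log2 fold change of SP5 was -0.08 with an adjusted p of 0.548, without NC replicate 3 it was -0.29 with an adjusted p of 0.00253, and with no filter on low counts it was -0.19 with an adjusted p of 0.0105, where the adjusted p of SP5 ran from 0.00253 to 0.548 over its alternatives. In all, 0 of these 7 KLF and SP genes passed in edgeR (4.45% of all genes tested), and 1 was at an unadjusted p below 0.05. That unadjusted threshold was met by 2293 of all 12386 genes tested. Limma-trend and limma-voom also called 0 of the 7, as did DESeq2 for the 5 to which it gave an adjusted p (not KLF7 and KLF12).

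**Figure D3:**
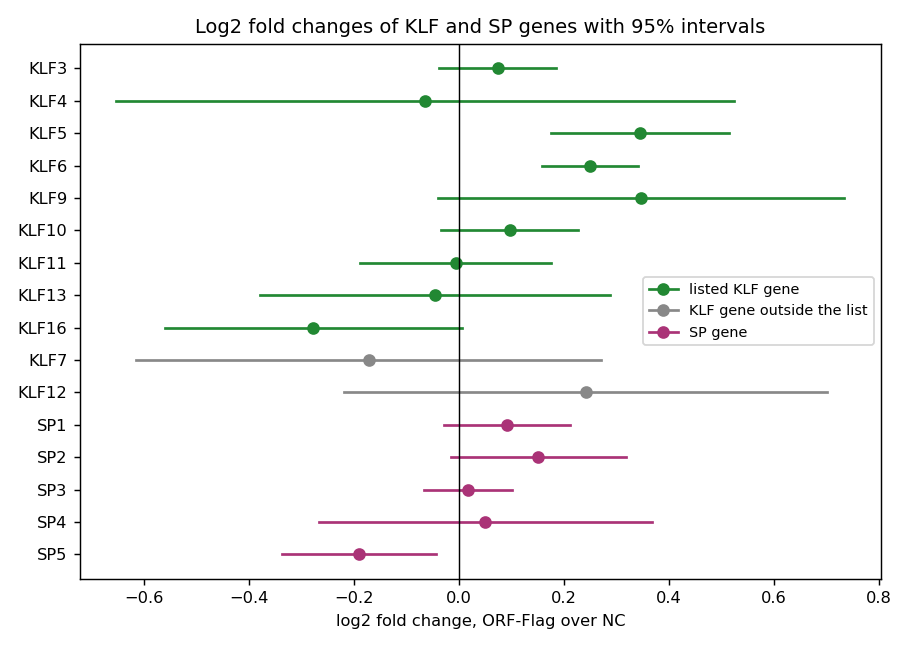
Log2 fold change of ORF-Flag over NC for each tested KLF and SP gene, with lines for the 95% interval from edgeR (listed KLF genes green, other KLF genes grey, SP genes purple). The intervals of genes with few counts, such as KLF4 and KLF12, are the widest.

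Promoter sequence was taken from RefSeq (GRCh38.p14), which gave 10 windows of 250 bases before to 50 bases after a start site for 8 of the 10 listed genes. The windows of KLF5, KLF6 and KLF16 are shown because the groups did not overlap for these genes, with KLF5 read from both of its starts. Capitals mark the elements that KLF and SP factors are known to bind, the GC box GGGCGG and the CACCC box CACCC on either strand. The KLF6 gene spans chr10:3775996-3785281 in GENCODE v29 (GRCh38), KLF5 chr13:73054976-73077542 and KLF16 chr19:1852399-1863568. In RefSeq, KLF6 was read at chr10:3785160-3785459 on the minus strand, KLF5 at chr13:73054726-73055025 and chr13:73058755-73059054 on the plus strand, and KLF16 at chr19:1863530-1863829 on the minus strand.
KLF6: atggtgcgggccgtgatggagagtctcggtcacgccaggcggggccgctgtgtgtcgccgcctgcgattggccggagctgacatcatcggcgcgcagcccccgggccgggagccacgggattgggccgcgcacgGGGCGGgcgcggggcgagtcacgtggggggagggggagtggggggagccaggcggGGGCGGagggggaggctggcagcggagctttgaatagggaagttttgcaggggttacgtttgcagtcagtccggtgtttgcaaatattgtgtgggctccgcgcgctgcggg
KLF5, first start: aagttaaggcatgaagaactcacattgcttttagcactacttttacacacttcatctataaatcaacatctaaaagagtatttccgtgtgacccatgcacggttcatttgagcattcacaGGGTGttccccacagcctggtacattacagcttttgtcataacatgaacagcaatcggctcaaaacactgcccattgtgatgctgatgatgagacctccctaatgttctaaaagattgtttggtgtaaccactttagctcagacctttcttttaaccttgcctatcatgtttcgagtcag
KLF5, second start: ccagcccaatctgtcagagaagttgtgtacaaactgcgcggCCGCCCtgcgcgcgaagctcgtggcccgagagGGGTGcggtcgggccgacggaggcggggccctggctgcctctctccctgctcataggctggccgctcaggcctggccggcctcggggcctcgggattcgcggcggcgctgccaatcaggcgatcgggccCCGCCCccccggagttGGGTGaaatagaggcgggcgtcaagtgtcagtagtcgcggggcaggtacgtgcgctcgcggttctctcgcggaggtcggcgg
KLF16: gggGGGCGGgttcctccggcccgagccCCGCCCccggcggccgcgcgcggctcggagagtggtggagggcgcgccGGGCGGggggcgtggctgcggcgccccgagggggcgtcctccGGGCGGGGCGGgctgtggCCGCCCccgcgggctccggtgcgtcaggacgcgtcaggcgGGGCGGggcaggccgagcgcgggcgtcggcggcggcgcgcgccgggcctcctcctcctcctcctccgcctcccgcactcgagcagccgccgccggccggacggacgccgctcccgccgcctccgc

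The window of KLF6 held 2 GC boxes, 0 CACCC boxes, 2 CCAAT boxes and 1 E-box, at 70.7% G and C. The 2 starts of KLF5 differed. The first, at 40.7% G and C, held 0 GC boxes, 1 CACCC box and a TATAAA, and the second, at 71.3% G and C, held 2 of each box and 2 CCAAT boxes. KLF16 held 7 GC boxes at 86.0% G and C. The median over all 35116 promoters of the table was 58.7% G and C.

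A GC box was found in 8 of the 10 windows, all but the first start of KLF5 and that of KLF9, and in 44.95% of all promoters. A CACCC box was in 4 windows (59.9% of all promoters), a CCAAT box (CCAAT) in 5 (34.6%), an E-box (CACGTG) in 4 (7.26%), a TATA box (TATAAA) in 1 (11.5%) and a cAMP response element (TGACGTCA) in 1, the second start of KLF11, where it overlaps a CACCC box (1.85%). The AP-1 site TGANTCA was in 0 windows (7.71% of all promoters), the TEAD site GGAATG in 0 (14.0%) and the CArG box in 0 (1.29%). Both strands were searched. A match says only that the letters stand in the window.

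**Figure D4:**
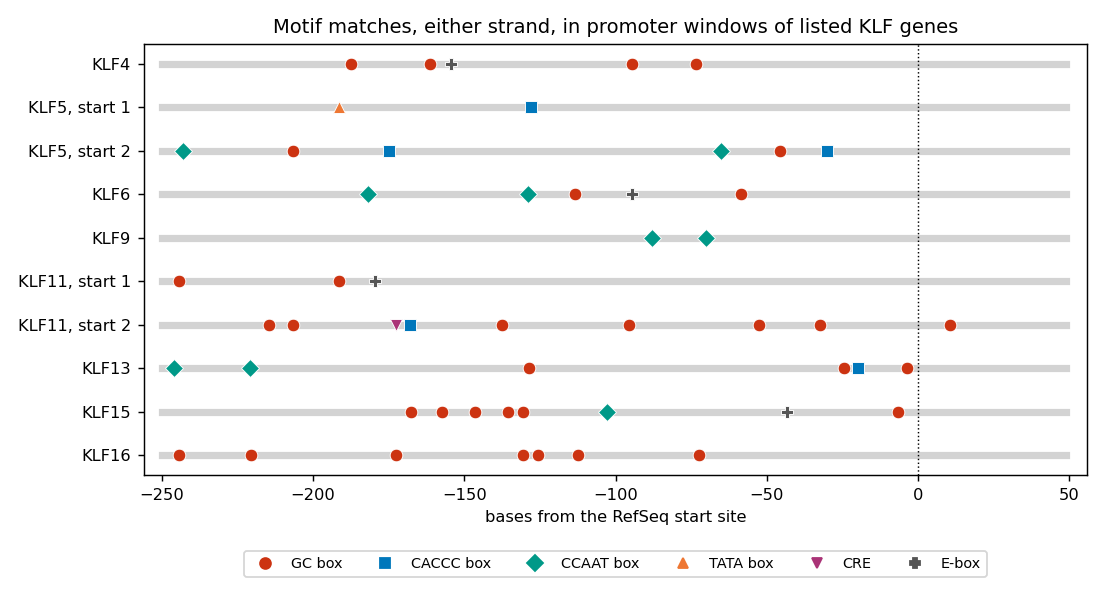
Positions of motif matches on either strand in the 10 promoter windows of 8 listed KLF genes, as bases from the RefSeq start site, with each bar a window and each symbol a match. KLF16 and the second start of KLF11 each hold 7 GC boxes, and KLF9 and the first start of KLF5 hold 0.

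Cofactors of the family, upstream and early-response genes, and genes known as KLF targets were compared next. Of 108 such genes 100 were tested, and 14 passed at an adjusted p of 0.05, with 12 higher and 2 lower in ORF-Flag. That is 14.0%, beside 4.45% of all genes tested (2.47% higher and 1.98% lower). These lists, and each list below, were written with earlier results of these data known. The share of called genes in them therefore supports nothing. The count was 8 without NC replicate 2, 9 without ORF-Flag replicate 1, 9 without ORF-Flag replicate 2 and 7 without ORF-Flag replicate 3, where the count over all genes, 551, went to 267, 300, 278 and 199. The median log2 fold change of the 100 was 0.03.

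The partners of the KLF proteins fall into 3 lists. Of 12 corepressor genes, among them those of CtBP, SIN3 and the histone deacetylases, 0 passed in edgeR, with a median log2 fold change of 0.01. At an unadjusted p below 0.05 was 1 of the 12, beside 2293 of all 12386 genes tested. Of 4 acetyltransferase genes 0 passed, with 2 at an unadjusted p below 0.05, beside the same 2293 of 12386, and a median of 0.05. Limma-trend and limma-voom also gave 0 for both lists, as did DESeq2 with an adjusted p for 11 of the 12 and all 4, while 1 corepressor gene passed, lower, without NC replicate 1 and 1 acetyltransferase gene, higher, without NC replicate 3. Of 6 genes for ubiquitin ligase subunits that act on KLF proteins, 1 passed, lower (1.98% of all genes tested). VHL, the substrate receptor that also targets HIF-alpha, was at 30.4, 30.3 and 28.5 CPM in NC and at 26.7, 24.6 and 25.1 CPM in ORF-Flag, so that every ORF-Flag library lay below NC. VHL fell, with a log2 fold change of -0.22 (SE 0.061, edgeR adjusted p = 0.0408). The call of VHL was lost in DESeq2 (adjusted p = 0.0738) and without any one library other than NC replicate 3, where the log2 fold change lay between -0.26 and -0.20, and its adjusted p over all alternatives ran from 0.0155 to 0.175.

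The serum response and early genes hold factors upstream of KLF genes and other early genes such as IER3. Of the 9 tested, 5 were higher (2.47% of all genes tested) and 0 lower (1.98%), with a median log2 fold change of 0.29. Since earlier results were known when the list was written, nothing is read from this count. The count went to 2 without NC replicate 2 or ORF-Flag replicate 3, and to 3 without ORF-Flag replicate 2 and in DESeq2, which gave 7 of the 9 an adjusted p. ATF3, a stress-induced bZIP factor, was at 4.75, 4.92 and 4.54 CPM in NC and at 8.83, 8.27 and 9.82 CPM in ORF-Flag, with no overlap. For ATF3 the log2 fold change was 0.93 (SE 0.12, edgeR adjusted p = 1.6e-05). IER3, an early gene that modulates apoptosis, rose in all 3 ORF-Flag libraries, with a log2 fold change of 0.24 (SE 0.047, edgeR adjusted p = 0.00286).

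FOSB, a subunit of AP-1, had 3, 4 and 5 counts in NC and 12, 12 and 25 counts in ORF-Flag. These counts are close to the limit of counting in NC, and FOSB passed the filter on low counts only through the ORF-Flag libraries, where it is high. The counts of 5 and 14 and the list median above include it, and its test is no support for them. Its log2 fold change was 2.07 (SE 0.48, edgeR adjusted p = 0.0126), and without ORF-Flag replicate 3 it was 1.74 with an adjusted p of 0.146, and without NC replicate 2 it was 2.07 with an adjusted p of 0.053 (range over the alternatives of FOSB 0.003 to 0.146). JUN, another AP-1 subunit, had a log2 fold change of 0.19 (SE 0.051, edgeR adjusted p = 0.0301). The call of JUN was lost without NC replicate 2 (0.19), ORF-Flag replicate 2 (0.19) or ORF-Flag replicate 3 (0.13), and its adjusted p ran from 0.00361 to 0.253 over all alternatives. JUNB, named here after its values were seen as the remaining gene past the threshold, had 0.28 (SE 0.078, edgeR adjusted p = 0.0357). JUNB lost its call in DESeq2 and without any one library other than NC replicate 1, which gave values of 0.22 to 0.33, and its adjusted p ran from 0.0113 to 0.178 over all alternatives.

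Of 6 genes tested of the ERK5 and MEF2 axis, which induces KLF2 and KLF4, 0 passed in edgeR, 0 were at an unadjusted p below 0.05, and the median log2 fold change was -0.015. The glucocorticoid list held the receptor gene NR3C1 and genes known as targets of the receptor. Of its 8 tested genes 0 passed in edgeR, with 2 at an unadjusted p below 0.05 (2293 of all 12386 genes tested). Their median log2 fold change was 0.05. Limma-trend and limma-voom gave 0 for both, as did DESeq2 with an adjusted p for all 6 and for 6 of the 8. In the glucocorticoid list 1 gene passed, higher, with no filter on low counts, with the replicate number as a block, without NC replicate 1 and without ORF-Flag replicate 2.

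Of 12 clock genes tested, some of which control KLF9, KLF10 and KLF15 rhythms, 1 passed, higher, with a list median of 0.04. A single call among 12 genes is near the 4.45% of all genes tested and is not read as a result about the list. The gene was BHLHE40, a repressor of CLOCK and BMAL1 activity, at 52.5, 48.2 and 48.2 CPM in NC and at 65.7, 58.6 and 63.5 CPM in ORF-Flag. BHLHE40 had a log2 fold change of 0.34 (SE 0.051, edgeR adjusted p = 0.000168), with no overlap between the groups.

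Of the 10 tested cell cycle genes known as KLF targets, 1 was higher (2.47% of all genes tested) and 1 lower (1.98%). The median log2 fold change of these 10 was -0.03. A second gene passed, lower, in DESeq2, without TMM factors, with no filter on low counts and with the replicate block. CDKN1A, which encodes the CDK inhibitor p21 and is activated by KLF4 and KLF6, was at 42.5, 37.6 and 40.4 CPM in NC and at 51.7, 51.5 and 53.2 CPM in ORF-Flag. The groups stood apart, with a log2 fold change of CDKN1A of 0.38 (SE 0.052, edgeR adjusted p = 5.7e-05). CCND1, which encodes cyclin D1, was at 126, 120 and 116 CPM in NC and at 109, 112 and 109 CPM in ORF-Flag. Its log2 fold change was -0.14 (SE 0.039, edgeR adjusted p = 0.0346). The call of CCND1 was lost without any one library other than NC replicate 3, where the log2 fold change lay between -0.155 and -0.112, and its adjusted p over all alternatives ran from 0.00471 to 0.16.

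A list of genes linked to KLF6 held matrix, adhesion and keratin genes, among others. Of its 10 tested genes, 3 were higher (2.47% of all genes tested) and 0 lower, with a median log2 fold change of 0.08. All 3 were keratins of simple epithelia, the intermediate filament proteins of hepatocytes and bile duct cells, and no matrix or adhesion gene passed. In each of the 3 the ORF-Flag libraries lay above NC. KRT19 went from a mean of 499 ± 26.3 CPM (SD, n = 3) in NC to 578 ± 5.45 CPM with ORF-Flag, which is 0.21 on the log2 scale (SE 0.035, edgeR adjusted p = 0.000636). KRT18 had 0.16 (SE 0.032, edgeR adjusted p = 0.00513) and KRT8 had 0.12 (SE 0.032, edgeR adjusted p = 0.028). The call of KRT8 was lost without NC replicate 2, ORF-Flag replicate 1, ORF-Flag replicate 2 or ORF-Flag replicate 3, which gave values of 0.11 to 0.14, and its adjusted p ran from 0.00344 to 0.16 over all alternatives.

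Of the 15 tested genes of hepatic metabolism that KLF factors are known to control, 1 was higher and 0 lower, with a median log2 fold change of 0.08. At 6.67% this is near the share over all genes tested, 4.45%, so nothing is said of the list as a whole. The gene was GOT1, the cytosolic aspartate aminotransferase, at 185, 187 and 183 CPM in NC and at 197, 207 and 201 CPM in ORF-Flag. The groups did not overlap, and the log2 fold change was 0.12 (SE 0.034, edgeR adjusted p = 0.0374). The call of GOT1 was lost without NC replicate 2, ORF-Flag replicate 1, ORF-Flag replicate 2 or ORF-Flag replicate 3, which gave values of 0.10 to 0.14, and its adjusted p ran from 0.0202 to 0.198 over all alternatives.

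**Figure D5:**
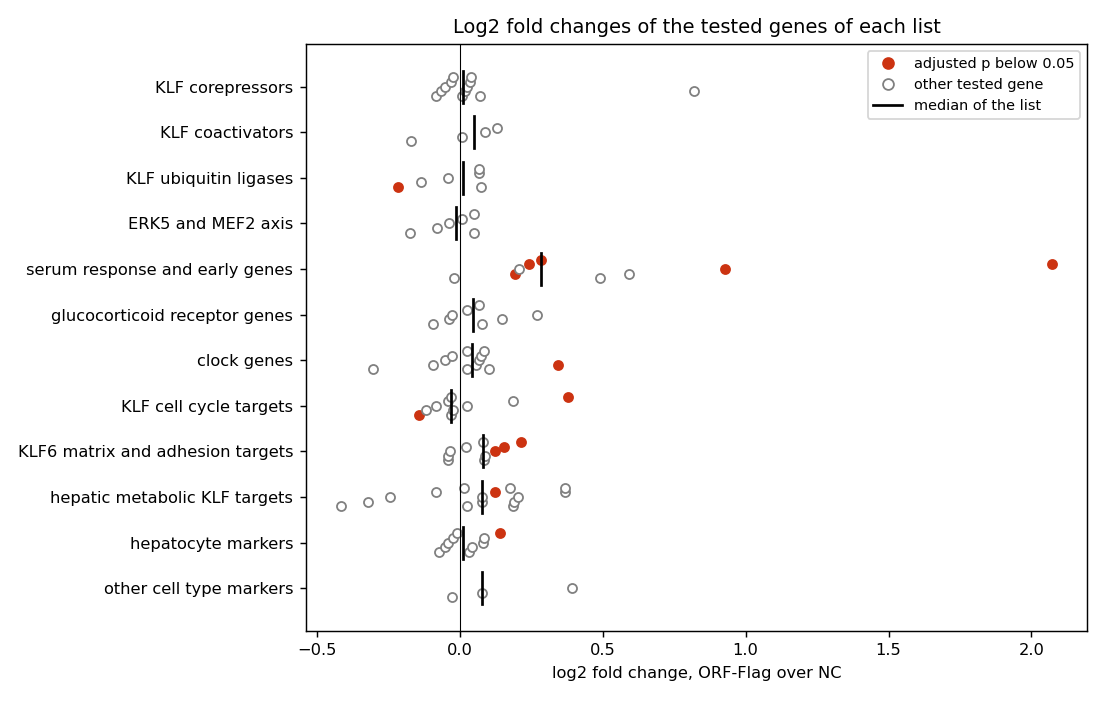
Log2 fold change of ORF-Flag over NC for each tested gene of 12 lists of cofactors, upstream and early genes, targets and cell markers. Filled red points are past an adjusted p of 0.05 in edgeR, and a line marks each list's median. The 5 red points of the serum response and early genes all lie above 0, and the medians of the other 11 lists lie between -0.03 and 0.08.

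By likeness of log2 CPM over the 6 libraries, among 11567 tested genes with a mean of at least 1 CPM and as a description, the genes closest to KLF6 were ATP6V1E1, HMGCS1 and SOX5, with a Pearson r of 0.997, 0.997 and 0.996. Those closest to KLF10 were TECTB (0.988), SDE2 (0.976) and MX2 (0.970), and those closest to KLF3 were MRPL10 (0.992), GOLT1A (0.989) and CSF1 (0.986). The points share the 6 libraries and their grouping, and these r carry no test.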

How the data were processed

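RNA-Seq read counts per gene of 6 HepG2 libraries, 3 NC and 3 ORF-Flag, were used as the authors deposited them. The submitters' processing notes name cutadapt 1.11, HISAT2 2.1.0, featureCounts 1.6.0 and GRCh38, with no strand setting or annotation. Of 20422 Ensembl identifiers, 20421 were matched to a symbol. Groups were compared in edgeR 4.0.16 (R 4.3.3) with filterByExpr, TMM factors, glmQLFit and glmQLFTest, two-sided, and Benjamini-Hochberg adjustment over 12386 genes; the SE was derived from the F statistic. CPM used TMM-scaled totals and FPKM the exon length of GENCODE v29 (GRCh38). Fits were tested on simulated data. Alternatives were DESeq2 1.42.0, limma-trend and limma-voom (limma 3.58.1), no TMM, no filter, at least 10 counts in every library, the replicate number as a block, and each library left out.

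The members and lists were chosen with earlier results of these data known. Named were the listed genes, each tested KLF or SP gene, up to 4 genes per other list past an adjusted p of 0.05, by smallest p, and the 3 genes most like each of the 3 listed genes of highest mean FPKM. A list and a gene covered by this rule enter the total counts but are not described singly. Figures were drawn with matplotlib 3.10.9.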

Additional observations from a re-analysis of the deposited data

How the results depend on the processing

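Counts and named genes were recomputed under 13 alternatives, 6 of them with 1 library left out. The count over all genes, 551, ranged from 199, with ORF-Flag replicate 3 left out, to 1058, with NC replicate 3 left out. The count of listed KLF genes, a description, lay between 1 and 2. The count of other KLF and SP genes, 0, was 1 with no filter on low counts and lay between 0 and 1 with a library left out. The count of cofactor, upstream and target genes, 14, lay between 7 and 15 with a library left out. The log2 fold change of SP3 lay between -0.024 and 0.042 and that of SP4 between -0.15 and 0.19 with a library left out, so their signs turned, as did those of KLF4, KLF11 and KLF13. Every called gene named by rule kept its direction in each alternative that gave a value. DESeq2 gave no adjusted p to FOSB, KLF4, KLF7, KLF9 and KLF12, and FOSB had no value at the minimum of 10 counts.

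With the replicate number as a replicate block the counts were 731 over all genes, 2 for the listed genes, 0 for other KLF and SP genes and 16 for cofactor, upstream and target genes. Deviations from the group means of libraries with the same number correlated at 0.0666, 0.0266 and 0.0448, so the numbers are not taken as pairs, although each NC library correlated best with its own number.

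Depth limits the low genes. KLF15 entered with no filter, at a log2 fold change of -0.48 (SE 0.71). KLF4, KLF9 and KLF13, all with at most 104 counts per library, have intervals that hold both 0 and the fold changes of KLF6. The causes of these differences were not tested.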
